A study of Mus musculus with 24 samples.

Results

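The Rab GTPases described here are the genes whose symbol is Rab followed by a number and at most 1 letter and whose mean normalized count was at least 10 over the 3 control lungs of the Vangl2 comparison at P2. Of 23420 genes in each table, 57 had such a symbol and 54 passed. RNA of the left lung lobe was sequenced in 24 samples, 3 in each of 8 groups. At postnatal day 2 (P2) and postnatal day 5 (P5), lungs titled Sox9Cre; Vangl2f/f and lungs titled Sox9Cre; Ror2f/f were each set beside their own 3 control lungs, whose genotype is given as WT. The controls of the Vangl2 comparisons are titled Control(Vangl1/2) and those of the Ror2 comparisons Control(Ror2), and no mutant title names Vangl1. Every mutant group carried the Sox9Cre allele and no control is labelled with it, so the Cre allele and the loss of the floxed gene cannot be told apart. Sox9Cre acts in SOX9-positive distal epithelium, whereas RNA came from all cells of the lobe: mesenchyme, vessels and blood contributed to every value, so fewer cells of a type and less RNA per cell cannot be told apart. Ror2f/f is given as the genotype of the Vangl2 mutants at P5 and Vangl2f/f as that of the Ror2 mutants at P2, and the titles were followed here. No label says whether the lungs of a group came from separate litters, so p-values measure only the spread between these lungs.

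Rab proteins are small GTPases that give each membrane compartment its identity. Loaded with GTP by an exchange factor, a Rab sits in a membrane through its prenyl tail and recruits effectors that move, tether or fuse vesicles. GTPase-activating proteins switch it off, and GDP dissociation inhibitors carry it back to the cytosol. In lung epithelium, Rab27a, Rab3d, Rab38 and Rab14 are known from lamellar bodies and secretory granules, Rab11a, Rab25 and Rab17 from apical recycling, and Rab5a and Rab7 from early and late endosomes. The comparison asks whether the RNA of this transport machinery differed in lungs that had lost a planar cell polarity gene in the epithelium. The study proposes that alveolar cells without Vangl2 fail to release a growth factor ligand. It measured this release in embryo-derived cells lacking Vangl1 and Vangl2.

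Between 16178031 and 21546673 reads fell on genes in 23 of the lungs. In the remaining one, control replicate 1 of the Ror2 P5 comparison, 13823693 did, because all of its expressed genes on chromosomes 6 to 9 and X and 71.6% of those on chromosome 5 were listed at 0. That lung was set to missing for genes on chromosomes 5 to 9 and X, which left 22 of the 54 Rab genes with 2 control lungs at P5. Vangl2 RNA was lower in every Vangl2 mutant at both ages (from 249 to 302 normalized counts in controls and from 173 to 241 in mutants at P2, and from 292 to 369 and from 148 to 170 at P5). By limma neither difference was called (adjusted p = 0.241 and 0.0604). Ror2 RNA overlapped between Ror2 mutants and controls at both ages, so it does not check those labels. Where the genotype names the other gene, the lungs overlapped too: Ror2 in Vangl2 P5 (log2 fold change -0.48 ± 0.25) and Vangl2 in Ror2 P2 (-0.21 ± 0.14). As a check of the tissue, 10 alveolar type II markers summed to between 193700 and 542500 normalized counts per lung, leaving out the lung with missing chromosomes. Normalized counts of the sex-linked transcript Xist were between 5.22 and 283 in some lungs and between 11860 and 31660 in others, unevenly between groups. Xist was high in all 3 Vangl2 P5 controls (19970 to 31660) and low in all 3 Ror2 P5 mutants (5.22 to 130). Sex and genotype are thus partly mixed for every gene, including the X-linked members Rab9, Rab33a and Rab39b. In the Vangl2 P5 table, deviations from the group means were correlated between control and mutant lungs of equal replicate number.

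The floor of 10 was read on these samples and is no finding. Just inside it lay Rab39 and Rab33a, both with a control mean of 10.2 normalized counts, and Rab39b with 19.1, and just outside it Rab42 with 8.85, Rab26 with 6.17 and Rab9b with 0.632. Read on the Vangl2 P5 or the Ror2 P5 controls, the same floor would keep 52 genes, all but Rab33a and Rab39. The Vangl2 P2 values of those 52 therefore do not hang on which table's controls set the floor.

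Rab genes are close relatives, so it matters how far their reads can be told apart. The longest runs of identical coding bases shared by paralog pairs are shown to make this visible, each read from the GENCODE M21 transcripts (GRCm38) and given 5′ to 3′.
Rab1 and Rab1b: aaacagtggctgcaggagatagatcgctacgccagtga
Rab5a and Rab5b: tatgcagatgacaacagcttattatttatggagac
Rab3b and Rab3d: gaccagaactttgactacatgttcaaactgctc
These runs are 38, 35 and 33 bases long, and among 22 paralog pairs compared the longest shared run was between 11 and 38 bases, so within coding sequence a 50-base read would not match a pair of these relatives exactly. Overlap with other genes was larger. Of the 50-base windows of each gene's transcript, under 1% occurred in any other gene's transcripts for 32 of the 54 members, and over 20% did for 7: Rab43 (90.4%, mostly in Gm45140), Rab4b (80.3%, Gm21983), Rab2b (74.2%), Rab24 (43.5%, Prelid1), Rab20 (22.9%), Rab6a (22.3%) and Rab33b (20.8%). The counts of these 7 are uncertain, because the counting rule and the strand setting are not given in the sources used here. Rab20 shares its windows with E230013L22Rik, which the annotation places on the opposite strand.

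Together the Rab genes took between 0.377% and 0.429% of all normalized counts in 23 lungs. Their levels were compared per length, as the control mean of normalized counts per kilobase of exon in the Vangl2 P2 table. Rab2a, which acts between the endoplasmic reticulum and the Golgi, was highest at 2040 ± 60.8 per kilobase (SD, n = 3). Rab5c (early endosomes) followed at 1770 ± 67.5, Rab1b at 1710 ± 17 and Rab1, which encodes Rab1a and works with Rab1b in the same early secretory step, at 1690 ± 92.8. Rab5c, Rab1b and Rab1 lay within their spread of one another. Rab10, which directs Golgi-derived and recycling vesicles to the plasma membrane, stood at 1310 ± 39.2 and Rab7, the late endosome Rab, at 1230 ± 65.3. At the low end, Rab37 (granule secretion) stood at 4.62 ± 0.834 and Rab39 at 3.43 ± 0.204 per kilobase. In normalized counts, 24 of the members had a control mean of at least 1000 and 10 a mean under 100.

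None of the 54 Rab genes passed an adjusted p of 0.05 in any of the 4 comparisons (limma on log2 of normalized count + 1 without a replicate block, Benjamini-Hochberg over all genes tested). In the Vangl2 P2 comparison 3.59% of 17448 genes were called, and the floor was read on its controls, so nothing is read from the count of 0 there. The share called was 0.563% of 17410 genes in the Vangl2 P5, 0% of 17541 in the Ror2 P2 and 0.128% of 17179 in the Ror2 P5 comparison, so a count of 0 among 54 genes lies near the background in these 3. At an unadjusted p under 0.05, 9 members were higher and 0 lower in Vangl2 P2 mutants (11.7% and 10.8% of all genes), 8 higher and 1 lower in Vangl2 P5 mutants (10.4% and 8.35%), 5 higher and 3 lower in Ror2 P2 mutants (9.55% and 9.71%), and 2 higher and 5 lower in Ror2 P5 mutants (10% and 8.36%). By DESeq2 on recovered reads, 4 members passed in Vangl2 P2 (Rab3c, Rab5a, Rab20 and Rab27a, all higher, where 7% of genes were called higher), 3 in Vangl2 P5 (Rab3c, Rab17 and Rab27a, all higher, where 5.63% were), 0 in Ror2 P2 (3.48%) and 1 in Ror2 P5 with control replicate 1 left out for all genes, a fit chosen after seeing the data (Rab17, higher, where 2.67% were). By edgeR none passed in any comparison. The share of all genes that edgeR called is not given here, so nothing is read from that count. With the replicate number as a block, Rab20 passed in Vangl2 P2 (higher, where 2.05% of all genes were called higher), and in a fit of all 12 lungs at P5 Rab27a passed in Vangl2 P5 (3.47% higher). With the block, 3 members passed in Vangl2 P5: Rab3c (adjusted p = 0.0189) and Rab27a (0.0391) were higher and Rab31 (0.0371) was lower, where 5.47% of all genes were called higher and 3.48% lower.

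The differences were small for most members. The absolute log2 fold change was under 0.25 for 33 of 54 in Vangl2 P2, 31 in Vangl2 P5, 34 in Ror2 P2 and 38 in Ror2 P5, and it exceeded 1 for 3, 3, 0 and 2 members. The median log2 fold change of the members was 0.084 in Vangl2 P2, -0.065 in Vangl2 P5, 0.035 in Ror2 P2 and 0.012 in Ror2 P5, beside medians over all genes of 0.001, 0.003, -0.006 and 0.004. All mutant lungs lay above all control lungs for 13 members and below for 2 in Vangl2 P2 (14.6% and 14.9% of all genes), for 8 and 5 in Vangl2 P5 (13.2% and 12.5%), and for 7 and 6 in Ror2 P2 (13.4% and 12.2%). In Ror2 P5 this held for 4 and 3 of the 32 members with 6 lungs (13.7% and 12.3% of such genes) and for 6 and 10 of the 22 with 5 lungs (19.3% and 18.3%). The smallest p of the exact two-sided permutation test is 0.1 with 3 lungs against 3 and with 2 against 3. With 3 against 3, genes without overlap reached it. With 2 against 3 not all of them did, as Rab7 gave 0.1 but Rab3d and Rab6a gave 0.2.

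**Figure D1:**
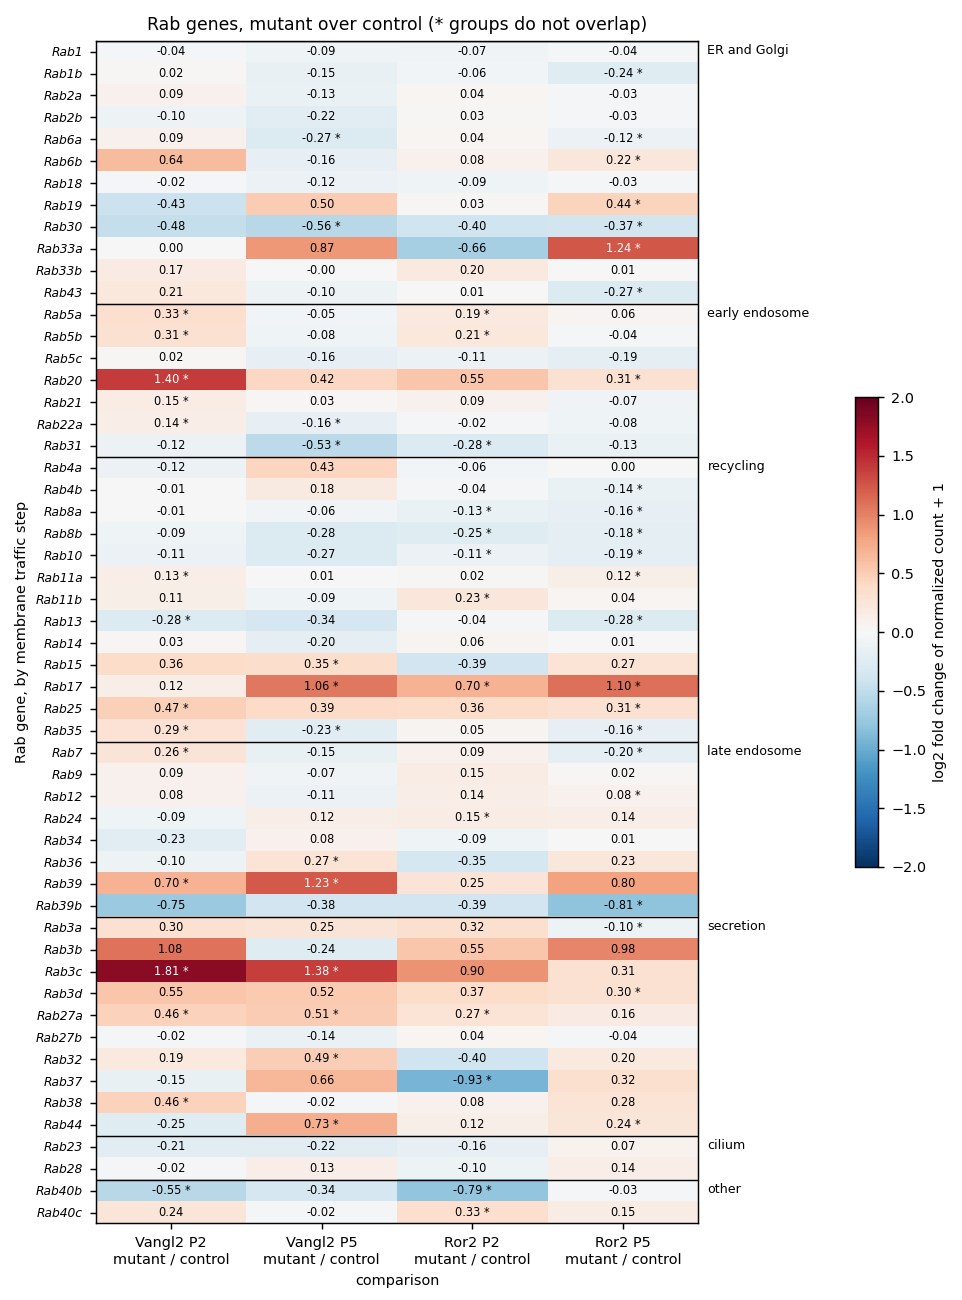
Log2 fold change (mutant over control, colour scale from -2 to 2) of the 54 Rab genes in rows, grouped by membrane traffic step, in the 4 comparisons in columns. A star marks genes whose mutant lungs all lay above or all below the control lungs (2 control lungs for 22 genes in Ror2 P5), and the strongest colours are those of Rab3c and Rab20 in Vangl2 P2, at 1.81 and 1.40.

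Among the 10 Rab genes of regulated secretion and lysosome-related organelles, 7 were higher and 3 lower in Vangl2 P2 and again in Vangl2 P5, and 8 higher and 2 lower in Ror2 P2 and in Ror2 P5. The group's median log2 fold changes were 0.38, 0.50, 0.19 and 0.26, the furthest above 0 among the 3 groups of 10 or more members in each comparison, and no member was called. Rab27a, which tethers secretory granules and lysosome-related organelles at the plasma membrane, separated the lungs in 3 comparisons. In Vangl2 P2 its normalized counts were 1422, 1378 and 1189 in the controls and 1946, 1806 and 1718 in the mutants. In Vangl2 P5 they were 1118, 1170 and 1005 against 1531, 1486 and 1662. In Ror2 P2 they were 962, 1020 and 1162 against 1269, 1164 and 1350. At each of these 3 points every mutant lung exceeded every control lung, in Ror2 P2 by 2 counts at the closest pair. In Ror2 P5 the 2 control lungs with a value had 701 and 858 and the mutants 1005, 829 and 777, and the groups overlapped. The log2 fold changes were 0.46 ± 0.11 (SE; adjusted p = 0.0573) in Vangl2 P2, 0.51 ± 0.12 (0.106) in Vangl2 P5, 0.27 ± 0.10 (0.228) in Ror2 P2 and 0.16 ± 0.14 (0.574) in Ror2 P5, all by limma. In Vangl2 P2 the adjusted p was 0.0298 when mutant replicate 3 was left out and 0.210 without control replicate 2. The paralog Rab27b, at 1288 ± 120 normalized counts in the Vangl2 P2 controls, had log2 fold changes between -0.14 and 0.04 in the 4 comparisons.

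The 250 bases upstream of the RefSeq start of Rab27a (GRCm38.p6, chr9:73044560-73044809, plus strand) are shown because Rab27a stood above its controls in most comparisons. Capitals mark a GC box (GGGCGG or its reverse complement CCGCCC).
Rab27a upstream: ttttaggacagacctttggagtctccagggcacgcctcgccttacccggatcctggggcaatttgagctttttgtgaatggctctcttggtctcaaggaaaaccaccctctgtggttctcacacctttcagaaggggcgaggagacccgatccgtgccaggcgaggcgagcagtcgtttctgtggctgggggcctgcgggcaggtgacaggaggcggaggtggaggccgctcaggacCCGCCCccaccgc
Of the 44 members with such a window in the RefSeq table, 68.2% held a GC box, beside 32.7% of 32817 windows of all genes, and the median GC content was 60.6% against 52.4%. An E-box (CACGTG) was found in 4 members' windows (9.09%, beside 6.02% of all windows), namely those of Rab5a, Rab20, Rab21 and Rab23. All motifs were searched on both strands and a match is only a description of the letters.

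The other secretion Rabs were more uneven between lungs. Rab3d, a granule Rab of exocrine and alveolar type II cells, had 899, 1035 and 777 normalized counts in the Vangl2 P2 controls and 2157, 1154 and 906 in the mutants. Mutant replicate 1 stood far above the other lungs, and the groups overlapped (log2 fold change 0.55 ± 0.29, adjusted p = 0.311). Rab3d was higher on average in all 4 comparisons, by 0.52 ± 0.22 in Vangl2 P5, 0.37 ± 0.27 in Ror2 P2 and 0.30 ± 0.13 in Ror2 P5, and separated the lungs only in Ror2 P5 (601 and 669 against 892, 784 and 685). Rab3c, best known from regulated exocytosis in neurons and endocrine cells, had 91.6, 78.7 and 108 in the Vangl2 P2 controls and 834, 306 and 133 in the mutants, a log2 fold change of 1.81 ± 0.57 (adjusted p = 0.122). In Vangl2 P5 it had 77.5, 40 and 56.4 against 203, 102 and 154, or 1.38 ± 0.35 (adjusted p = 0.113). Both sets of mutant lungs lay above their controls, but in Ror2 P2 (105, 57.8 and 371 against 38.2, 89.2 and 101) and in Ror2 P5 the lungs overlapped.

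Rab38, which with Rab32 serves the biogenesis of lysosome-related organelles such as lamellar bodies, had 153, 194 and 147 normalized counts in the Vangl2 P2 controls and 259, 223 and 198 in the mutants (log2 fold change 0.46 ± 0.19, adjusted p = 0.197). It did not separate the lungs in the other comparisons, where its log2 fold changes were -0.02, 0.08 and 0.28. Rab32 was higher in Vangl2 P5 mutants (226, 280 and 225 against 175, 162 and 181, log2 fold change 0.49 ± 0.18, adjusted p = 0.213) and lower on average in Ror2 P2 (-0.40 ± 0.16, adjusted p = 0.252). Rab37 had 28.2, 26.5 and 12.6 in Ror2 P2 mutants against 30.9, 37.7 and 59.6, the lowest log2 fold change of any member at -0.93 ± 0.41, and in Vangl2 P5 mutant replicate 3 alone had 181 where the other 5 lungs had 22.4 to 45.3.

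**Figure D2:**
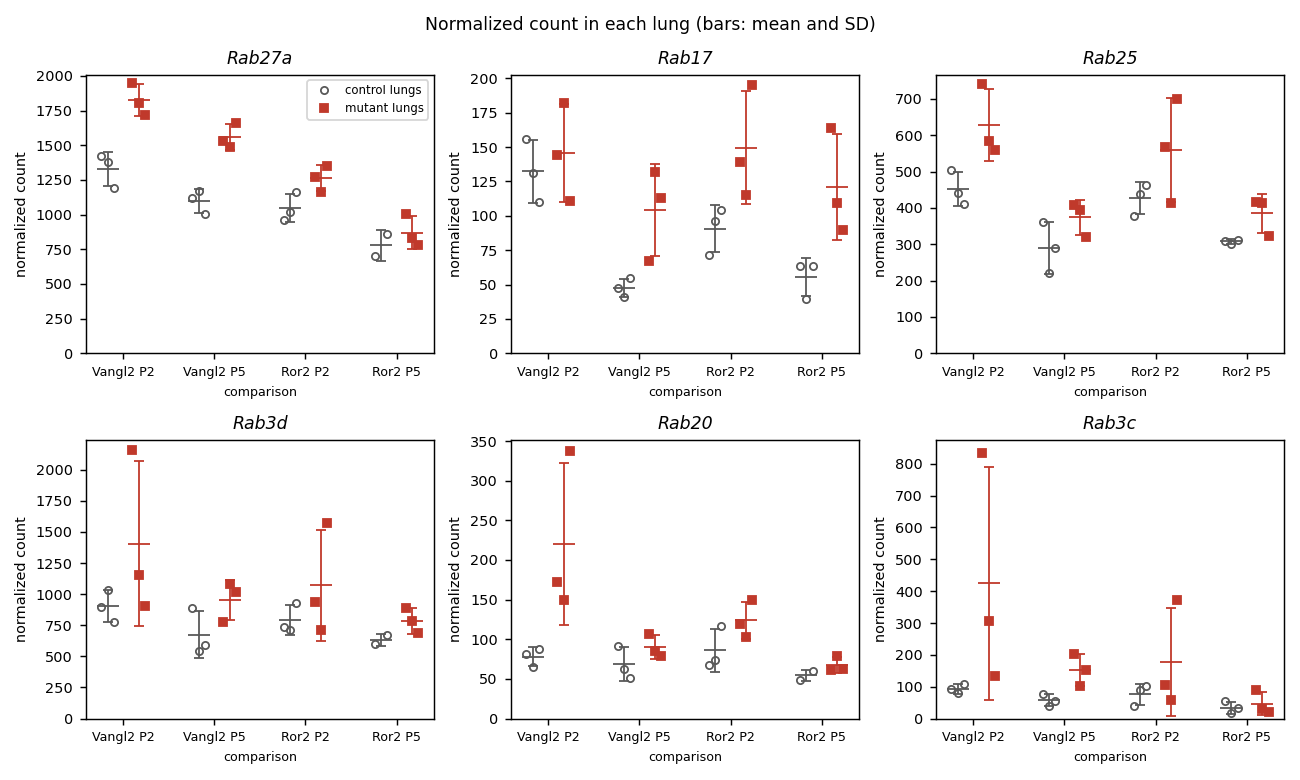
Normalized count (vertical axis, from 0) of Rab27a, Rab17, Rab25, Rab3d, Rab20 and Rab3c in each control lung (open circles) and mutant lung (squares), with bars for mean and SD, in the 4 comparisons. Rab27a in Vangl2 P2 runs from 1189 to 1422 in controls and from 1718 to 1946 in mutants, while single mutant lungs carry the means of Rab3d (2157) and Rab3c (834) there.

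The 13 Rab genes of recycling and polarized membrane delivery held both the members with higher and those with lower mutant lungs, and their median log2 fold change lay between -0.06 and 0.03 in the 4 comparisons. Rab17 and Rab25, both largely confined to epithelia, were higher. Rab17, which serves transport through apical recycling endosomes, had 47.4, 41.1 and 54.4 normalized counts in the Vangl2 P5 controls and 66.9, 132 and 113 in the mutants. In Ror2 P2 it had 71.2, 96.5 and 104 against 139, 115 and 195, and in Ror2 P5 63.4, 39.2 and 63.5 against 164, 109 and 89.7. In these 3 comparisons no mutant lung overlapped a control lung, with log2 fold changes of 1.06 ± 0.32 (adjusted p = 0.147), 0.70 ± 0.26 (0.226) and 1.10 ± 0.29 (0.149). In Vangl2 P2 it overlapped (110 to 156 against 111 to 182, 0.12 ± 0.24). Rab27a and Rab17 were the only members whose mutant lungs stood wholly above controls in at least 3 of the 4 comparisons, which 4.62% of 16723 genes tested in all 4 did. No member's mutant lungs stood wholly below controls that often, as 4.44% of genes' did.

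Rab25, the epithelial relative of Rab11a, had 503, 440 and 412 normalized counts in the Vangl2 P2 controls and 741, 585 and 559 in the mutants, a log2 fold change of 0.47 ± 0.15 (adjusted p = 0.121). In Ror2 P5 it had 310, 300 and 313 against 417, 414 and 323 (0.31 ± 0.12, adjusted p = 0.242). All mutant lungs exceeded all controls in both, and in Vangl2 P5 and Ror2 P2 the lungs overlapped at mean log2 fold changes of 0.39 and 0.36. Its window upstream of the RefSeq start (GRCm38.p6, chr3:88548280-88548529, minus strand) holds a Grainyhead-like motif (AACCNGTT) and a cyclic AMP response element (TGACGTCA), both in capitals.
Rab25 upstream: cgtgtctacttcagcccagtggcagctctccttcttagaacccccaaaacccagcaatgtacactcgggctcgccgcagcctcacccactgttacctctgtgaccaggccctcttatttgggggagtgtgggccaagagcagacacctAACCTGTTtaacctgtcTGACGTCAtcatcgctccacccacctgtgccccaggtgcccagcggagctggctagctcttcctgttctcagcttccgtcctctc
It was the only one of the 44 members' windows with the Grainyhead-like motif, which 1.78% of all windows held, and 1 of 2, with Rab5a, that held the response element (1.55% of all windows). The window of Rab17 (chr1:90967668-90967917, minus strand) held none of the 6 motifs searched, but the RefSeq start it was taken from lies 1994 bases from the GENCODE start of the gene. Besides those named, the forkhead motif TGTTTAC and the TATA box TATAAA were searched.

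The ubiquitous recycling Rabs differed little. Rab11a had log2 fold changes of 0.13, 0.01, 0.02 and 0.12 and separated the lungs in Vangl2 P2 and Ror2 P5, and Rab14, which links Golgi and endosomes, of 0.03, -0.20, 0.06 and 0.01. Rab11b was higher in Ror2 P2 (4660, 4276 and 4983 normalized counts against 4048, 3949 and 3849, log2 fold change 0.23 ± 0.08, adjusted p = 0.215).

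The remaining named members of the group were lower or mixed. Rab13, which delivers junction proteins to epithelial tight junctions, had 546, 567 and 562 normalized counts in the Vangl2 P2 controls against 379, 515 and 495 in the mutants (log2 fold change -0.28 ± 0.14, adjusted p = 0.287). In Ror2 P5 it had 427, 405 and 426 against 328, 359 and 352 (-0.28 ± 0.09, adjusted p = 0.186). No mutant lung reached a control lung in either. Rab10 had 4481, 4887 and 4767 in the Ror2 P5 controls against 3920, 4048 and 4388, with log2 fold changes of -0.11, -0.27, -0.11 and -0.19 in the 4 comparisons. Rab8a and Rab8b, which carry vesicles to the cell surface and the cilium, were below controls on average in all 4 (with reads scaled by library totals instead, Rab8a lay at 0.04 in Vangl2 P5), Rab8b by 0.25 ± 0.09 on the log2 scale in Ror2 P2 (1519, 1728 and 1437 against 1778, 1860 and 1921, adjusted p = 0.219). Rab35, a fast recycling Rab, was above controls in every Vangl2 P2 mutant (2175, 1645 and 1660 against 1500, 1369 and 1585) and below them in every Vangl2 P5 mutant (1420, 1654 and 1625 against 1825, 1834 and 1842).

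**Figure D3:**
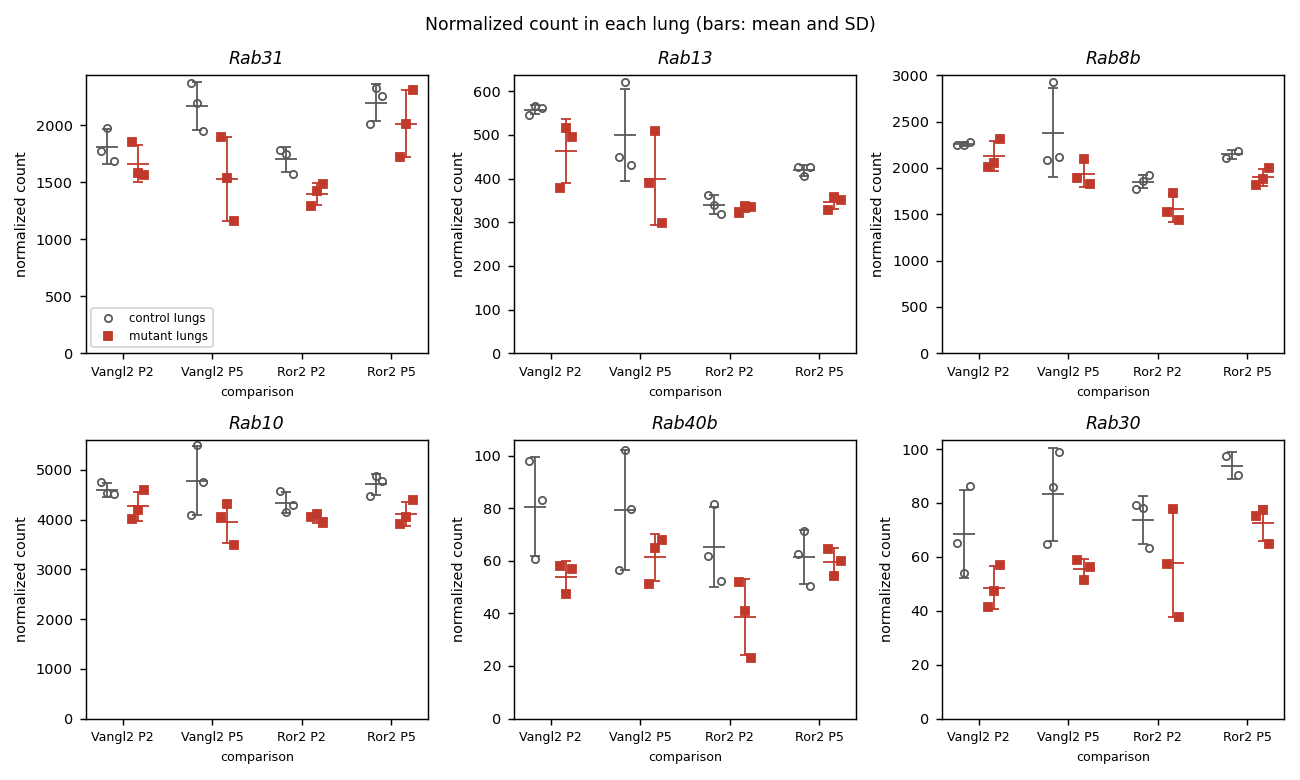
Normalized count (vertical axis, from 0) of Rab31, Rab13, Rab8b, Rab10, Rab40b and Rab30 in each control lung (open circles) and mutant lung (squares), with bars for mean and SD, in the 4 comparisons. Rab31 in Vangl2 P5 runs from 1950 to 2374 in controls and from 1162 to 1901 in mutants.

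Among the 7 Rab genes of early endosomes and phagosomes, 6 were higher in Vangl2 P2 mutants (median log2 fold change 0.15) and 5 were lower in Vangl2 P5 mutants (median -0.08), and none was called. Rab5a, the master Rab of early endosome fusion, had 1495, 1652 and 1732 normalized counts in the Vangl2 P2 controls and 2074, 1997 and 2033 in the mutants, so the groups were well apart (log2 fold change 0.33 ± 0.09, adjusted p = 0.0942). Rab5b was higher there by 0.31 ± 0.10 (adjusted p = 0.131), whereas the third isoform, Rab5c, differed by 0.02 ± 0.11. Rab5a and Rab5b were also above controls in every Ror2 P2 mutant, by 0.19 ± 0.09 and 0.21 ± 0.09, and Rab5c was lower there on average (-0.11 ± 0.08). At P5 all 3 isoforms lay between -0.19 and 0.06 in both mutants.

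Rab20, which acts in phagosome maturation and is expressed in macrophages and some epithelia, had 81.1, 64.5 and 88.1 normalized counts in the Vangl2 P2 controls and 172, 150 and 337 in the mutants. Every mutant lung stood clear of the controls, at a log2 fold change of 1.40 ± 0.32 (adjusted p = 0.0557), the lowest adjusted p of any member in any comparison. Leaving out mutant replicate 3, its highest lung, gave 1.05 with an adjusted p of 0.0297, in a fit that called 6.36% of all genes higher, and leaving out control replicate 2 gave 1.27 with an adjusted p of 0.227. In the other comparisons its log2 fold changes were 0.42, 0.55 and 0.31, and it separated the lungs in Ror2 P5. Rab31, which acts between Golgi, endosomes and phagosomes, was lower in every Vangl2 P5 mutant (1901, 1536 and 1162 against 2374, 2196 and 1950, log2 fold change -0.53 ± 0.19, adjusted p = 0.200) and every Ror2 P2 mutant (1295, 1427 and 1482 against 1784, 1747 and 1574, -0.28 ± 0.09, adjusted p = 0.206). It overlapped in the other 2, at -0.12 and -0.13.

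The 12 Rab genes of the endoplasmic reticulum and Golgi had median log2 fold changes between -0.12 and 0.02. In Vangl2 P5, 10 of the 12 were lower, and none reached an unadjusted p under 0.05. Rab1b had 4216, 4212 and 4198 normalized counts in the Ror2 P5 controls against 3235, 3566 and 3891 (log2 fold change -0.24 ± 0.08, adjusted p = 0.183), and its partner Rab1 differed by -0.04 ± 0.07. Rab6a (Golgi) was below its controls in every Vangl2 P5 mutant (-0.27 ± 0.16). Rab30, a Golgi Rab, was lower on average in all 4 comparisons, by 0.48, 0.56, 0.40 and 0.37 on the log2 scale, from control means of 68.5 to 93.8. Rab43 was lower in Ror2 P5 (-0.27 ± 0.08, adjusted p = 0.177), but 90.4% of its windows are shared. Rab33a had the highest log2 fold change in Ror2 P5 (1.24 ± 0.54) from counts of 2.01 and 5.95 against 14.8, 7.31 and 8.59.

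The 8 Rab genes of late endosomes, lysosomes and autophagy had medians between -0.01 and 0.12. Rab7, which drives late endosome and lysosome fusion, was above controls in every Vangl2 P2 mutant (4357, 3542 and 3670 against 3364, 3231 and 3026, log2 fold change 0.26 ± 0.11, adjusted p = 0.202) and below the 2 control lungs in Ror2 P5 (3097, 2906 and 3201 against 3692 and 3361, -0.20 ± 0.08, adjusted p = 0.261). The ciliary Rabs Rab23, an inhibitor of Hedgehog signalling, and Rab28 lay between -0.22 and 0.14 in all comparisons. Rab40b, whose protein joins a ubiquitin ligase, was lower in every Vangl2 P2 mutant (57.9, 47.2 and 57 against 98, 60.7 and 83.3, -0.55 ± 0.26, adjusted p = 0.256) and every Ror2 P2 mutant (51.8, 40.8 and 23.1 against 61.9, 81.8 and 52.2, -0.79 ± 0.35, adjusted p = 0.271), and its relative Rab40c was higher in Ror2 P2 (532, 513 and 634 against 449, 454 and 429, 0.33 ± 0.11, adjusted p = 0.211).

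Rab7, Rab11b and Rab5b were split by replicate rather than by genotype in the Vangl2 P5 table. Rab7 had 3668 normalized counts in control replicate 1 and 3023 in mutant replicate 1, against 1218 to 1358 in the other 4 lungs. Rab11b had 4771 and 4804 against 2190 to 2735, and Rab5b 3064 and 2769 against 1531 to 1872. Their relatives Rab11a, Rab5a and Rab5c showed no such split. In the transcriptome, 16.2%, 14% and 13% of the 50-base windows of these 3 genes occur in other genes' transcripts, most often in the processed pseudogenes Rab7-ps1, Rab11b-ps2 and Gm13991, against 2.5% for Rab11a, 9.1% for Rab5a and 0% for Rab5c. These relatives were chosen for their names, and Rab43, Rab4b and Rab2b, with the highest shares of all (90.4%, 80.3% and 74.2%), showed no such split, while Rab34, Rab3a and Rab1b, with 0% shared, had both replicates 1 on top by a smaller margin. The part of the shared sequence in the split was not tested. Both replicates 1 exceeded all 4 other lungs for 7 of the 54 members and 11.2% of all genes tested. The fold changes of these 3 genes in Vangl2 P5 therefore carried the widest errors among members with a control mean of at least 1000 there: -0.15 ± 0.47 for Rab7, -0.09 ± 0.34 for Rab11b and -0.08 ± 0.28 for Rab5b.

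**Figure D4:**
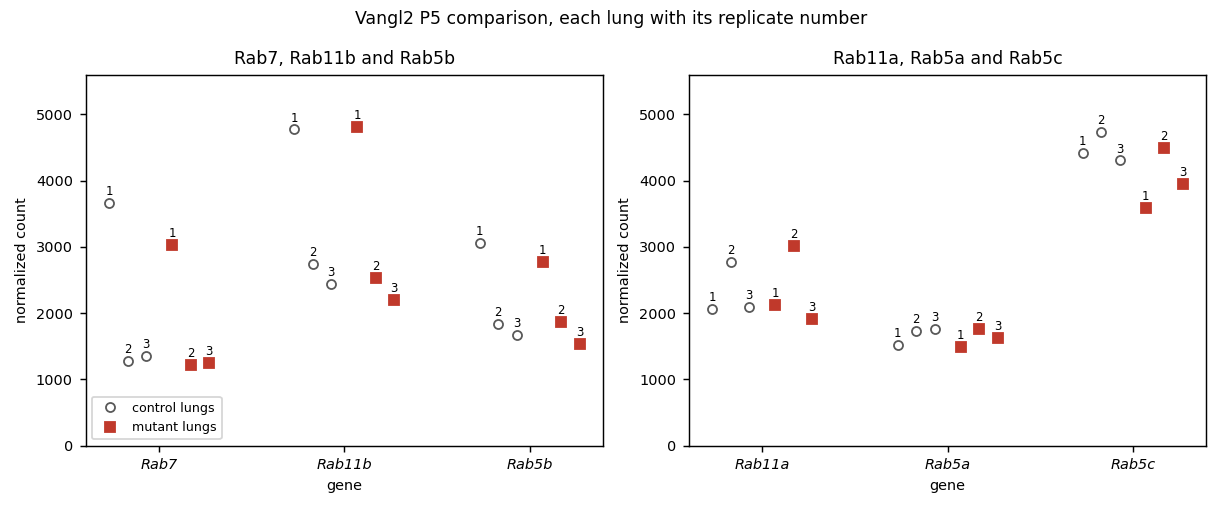
Normalized count (vertical axis, from 0) in the 6 lungs of the Vangl2 P5 comparison, controls as open circles and mutants as squares, each with its replicate number. For Rab7, Rab11b and Rab5b the lungs numbered 1 of both groups stand above the other 4, and for Rab11a, Rab5a and Rab5c they do not.

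The change of the mutant effect with age or gene was tested directly, with each table's own controls. No Rab gene passed an adjusted p of 0.05 in any of the 4 differences (limma over 12 lungs, with 0%, 0%, 0% and 0.0118% of all genes called in Vangl2 P5 minus P2, Ror2 P5 minus P2, Vangl2 minus Ror2 at P2 and Vangl2 minus Ror2 at P5). At an unadjusted p under 0.05 there were 6, 4, 0 and 0 members, where 8.45%, 9.51%, 4.6% and 4.73% of all genes were. The lowest p between ages of Vangl2 mutants belonged to Rab35 (difference -0.52 ± 0.18, adjusted p = 0.577), then Rab44 (0.98 ± 0.37) and Rab5a (-0.37 ± 0.15). Rab20 and Rab17 moved apart in opposite directions between these ages (-0.98 ± 0.45 and 0.94 ± 0.40, adjusted p = 0.590 and 0.577). Rab27a differed by 0.05 ± 0.16 between the ages of Vangl2 mutants and by 0.35 ± 0.19 between Vangl2 and Ror2 mutants at P5 (adjusted p = 0.998), so its stronger value in Vangl2 mutants was not shown to differ. Of the 54 members, 8 were higher on average in all 4 comparisons (14.8%, beside 18.7% of all genes) and 10 were lower in all 4 (18.5%, beside 21% of all genes), shares near the background. The 8 were Rab3c, Rab3d, Rab11a, Rab17, Rab20, Rab25, Rab27a and Rab39, of which Rab11a lay at -0.03 in Ror2 P2 with reads scaled by library totals.

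Of the proteins that load, unload or bind Rabs, 118 were listed and 5 were called in at least 1 comparison: 4 in Vangl2 P2, where 3.59% of all genes were called, and 2 in Vangl2 P5, where 0.563% were. None was called in Ror2 P2 or Ror2 P5, where 0% and 0.128% of all genes were, so these counts show no difference between the mutants. The 6 listed GDP dissociation inhibitors, escort proteins and prenyl transferase subunits had 0 calls in all 4 comparisons, as had the 35 exchange factors tested. Among 37 GTPase-activating proteins, 1 was called higher and 1 lower in Vangl2 P2, near the 3.59% of all genes called there. Rabgap1l had 1978, 2013 and 2061 normalized counts in controls and 2583, 2640 and 2902 in mutants (log2 fold change 0.42 ± 0.09, adjusted p = 0.0435). Tbc1d1, which acts on Rab10 and other Rabs of glucose transporter traffic, had 2200, 2291 and 2455 against 1522, 1563 and 1682 (-0.54 ± 0.09, adjusted p = 0.0326). None of the GTPase-activating proteins was called in the other comparisons, though both genes kept their direction on average. In Vangl2 P5, Ror2 P2 and Ror2 P5 the log2 fold changes of Rabgap1l were 0.26 ± 0.21, 0.35 ± 0.08 and 0.12 ± 0.11. Those of Tbc1d1 were -0.53 ± 0.24, -0.37 ± 0.13 and -0.42 ± 0.16.

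Among 36 effectors tested in the Vangl2 comparisons, 2 were called higher and 0 lower at each age, where 3.59% and 0.563% of all genes were called. Mlph (melanophilin), which links Rab27a to myosin Va, rose at both ages: from 263, 224 and 173 to 762, 418 and 569 normalized counts in P2 (log2 fold change 1.38 ± 0.25, adjusted p = 0.0326) and from 213, 168 and 182 to 505, 374 and 418 in P5 (1.19 ± 0.19, adjusted p = 0.0444). Rab11fip1, which binds Rab11a and Rab25 on recycling endosomes, rose in P2 from 2925, 2463 and 2461 to 5003, 4572 and 5155 (0.91 ± 0.10, adjusted p = 0.0248), and in P5 it had 2697, 3859 and 3696 in mutants against 2147, 2126 and 2049 (0.68 ± 0.16, adjusted p = 0.0991, and 0.0307 with the replicate block). Rabac1, a prenylated Rab acceptor, rose in P5 from 1149, 1233 and 1119 to 2181, 2024 and 1804 (0.78 ± 0.13, adjusted p = 0.0498). In Ror2 mutants the log2 fold changes of Mlph were 0.60 ± 0.25 and 0.65 ± 0.20 and those of Rab11fip1 0.85 ± 0.24 and 0.42 ± 0.21, none called, and their difference from the Vangl2 mutants is not given here. Each of these calls was lost when some single lung was left out, in P2 control replicate 2, control replicate 3 or mutant replicate 2 for all 4 genes and also control replicate 1 for Mlph, Rabgap1l and Tbc1d1. The adjusted p reached 0.168 for Mlph, 0.162 for Rab11fip1, 0.208 for Rabgap1l and 0.168 for Tbc1d1 in P2, and 0.153 for Mlph and 0.142 for Rabac1 in P5, where leaving out any of the 6 lungs ended both calls. With the block the Vangl2 P5 calls came to 2 higher and 2 lower among exchange factors, 0 and 2 among GTPase-activating proteins and 3 and 1 among effectors, in a fit that called 5.47% of all genes higher and 3.48% lower, and Rabgap1l was not called in Vangl2 P2 (adjusted p = 0.0564).

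**Figure D5:**
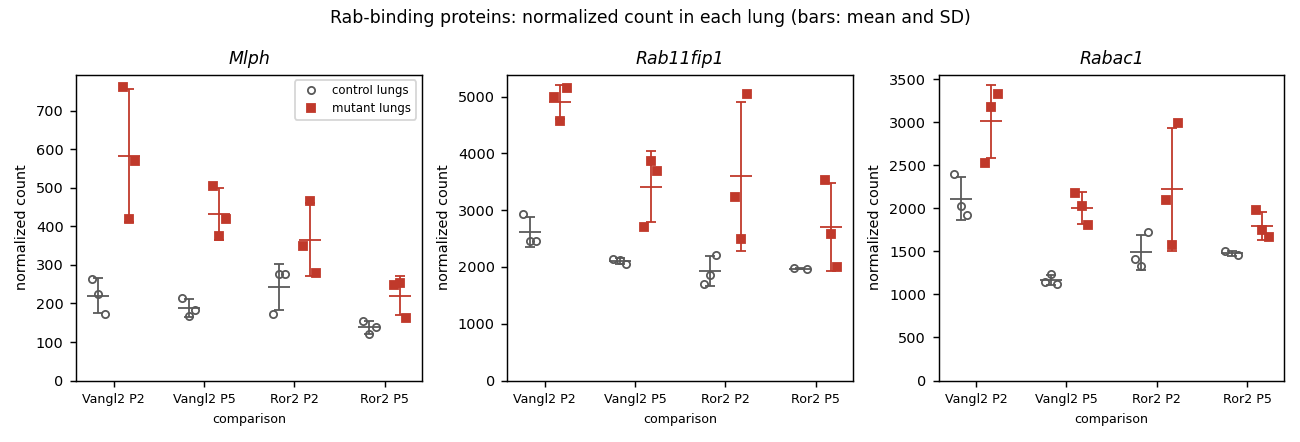
Normalized count (vertical axis, from 0) of the Rab-binding proteins Mlph, Rab11fip1 and Rabac1 in each control lung (open circles) and mutant lung (squares), with bars for mean and SD, in the 4 comparisons. Mlph in Vangl2 P2 runs from 173 to 263 in controls and from 418 to 762 in mutants.

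Summed markers of several lung cell types also differed between mutants and controls, and their part in the Rab and effector values was not tested. The summed normalized counts of 5 club cell markers were 130200 to 156500 in controls and 237800 to 272300 in mutants of Vangl2 P2, and 57310 to 111200 against 190400 to 251000 in Vangl2 P5. In Ror2 P2 they overlapped (114600 to 196300 against 150700 to 263800), and in Ror2 P5 they did not (72930 to 79080 against 130800 to 251600). The 7 neutrophil markers in the tables summed to 2617 to 3760 against 7072 to 10920 in Vangl2 P2. They summed to 2299 to 3230 against 7844 to 16360 in Vangl2 P5. The sums overlapped in Ror2 P2, where controls ran from 3497 to as much as 20540 against 4524 to 6655. They overlapped in Ror2 P5 too (1275 to 1630 against 1525 to 3299). All 7 were higher on average in both Vangl2 comparisons. Called higher were 6 in Vangl2 P2, where 3.59% of all genes were called, and 4 in Vangl2 P5, where 0.563% were. The 6 macrophage markers summed to 4150 to 4570 against 5347 to 6853 and to 3388 to 4211 against 5677 to 6138 in the 2 Vangl2 comparisons, with 0 called, and overlapped in the Ror2 ones. Of 10 alveolar type II markers, 8 were higher on average in Vangl2 P2 and 3 were called higher. In Vangl2 P5, Ror2 P2 and Ror2 P5, 9, 8 and 5 were higher on average and 0 were called. Their sums overlapped in all 4. The summed 5 matrix fibroblast markers were lower in all 4, without overlap. They came to 114700 to 129100 against 76290 to 89250 in Vangl2 P2 and 131000 to 163300 against 59150 to 110000 in Vangl2 P5. In Vangl2 P2, 1 of the 5 was called lower and 2 were higher on average. The 6 myofibroblast and smooth muscle markers summed to 84190 to 104600 in controls against 119000 to 218400 in Vangl2 P2 mutants. Only 2 of these 6 were higher on average there and 1 was called lower, so sum and members disagree. Their sums were lower without overlap in Ror2 P5 (142800 to 153600 against 108000 to 125700) and overlapped in Vangl2 P5 and Ror2 P2. Alveolar type I sums were higher without overlap in Vangl2 P2, Ror2 P2 and Ror2 P5, and ciliated cell sums in Vangl2 P5 and Ror2 P5. Endothelial sums were lower without overlap in Vangl2 P5 and Ror2 P5 and higher in Ror2 P2. Erythroid sums were lower without overlap in Vangl2 P2, and platelet and megakaryocyte sums in Ror2 P2. In the comparisons not named, these sums overlapped. The 8 lymphocyte markers overlapped in all 4 comparisons. In Vangl2 P5, however, their sums ran from 519.3 to 8593 in mutants against 523.1 to 1112 in controls. Which mutant lung reached 8593, and its part in single-lung values such as that of Rab37, was not tested.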

How the data were processed

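RNA of left lung lobes was extracted with TRIzol and RNeasy and sequenced on a HiSeq, per the labels. The deposited values are a signal per gene, read counts that the authors divided by a size factor of the DESeq2 kind within each table of 6 lungs (normalized counts), with mm10 named as the build in the submitters' processing notes. The aligner, the counting rule and the strand setting are not given in the sources used here. Multiplied back by the size factors, 100% of values lay within 0.02 of whole reads, and 0 sample columns were left unused. The tables also hold the authors' mean, log2 fold change, its error, test statistic, p-value and adjusted p-value per gene, which were not used.

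Within each table, log2(normalized count + 1) was compared with limma 3.58.1 (lmFit, eBayes with trend, R 4.3.3) for genes with at least 1 normalized count in at least 3 lungs, with Benjamini-Hochberg adjustment over all of them and a threshold of 0.05. A fold change on this scale understates that of low genes. Differences between comparisons were fitted over 12 lungs, each table with its own controls. In the Ror2 P5 table, 8085 genes were fitted without control replicate 1, whose value was set to missing. The members and gene lists were chosen with earlier results of these data known. Members were named when among the 4 with the lowest p in a direction of a comparison without overlap of the lungs, when in a list of 12 secretory, recycling, epithelial and phagocytic Rabs, or when next to the floor of 10, and 27 were; further members named for their values were chosen after these were seen. Regulators were named when called. Scripts were tested on simulated data. Alternatives were pseudocounts of 0.5 and 5, filters, TMM and library-total scaling, a fit over both genotypes, limma without trend, edgeR 4.0.16 and DESeq2 1.42.0 on recovered reads, leaving out each lung, and the replicate number as a block. In Vangl2 P5, deviations from the group means correlated at 0.485, 0.484 and 0.289 between same-numbered lungs, so the numbers were taken to pair them. This pairing comes from the data, not from the labels. The main fit leaves it out, so errors and adjusted p-values given for Vangl2 P5 are unpaired unless the block is named.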

Additional observations from a re-analysis of the deposited data

Results flagged for a closer look

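In Vangl2 mutants, every lung lay above its controls at P2 and below them at P5 for Rab35 and Rab22a. They were picked for this pattern, and the share of all genes that showed it is not given here. Of all genes, 14.6% separated upward in Vangl2 P2 and 12.5% downward in Vangl2 P5. The difference of the log2 fold changes (P5 minus P2) was -0.52 ± 0.18 for Rab35 (limma adjusted p = 0.577) and -0.30 ± 0.15 for Rab22a, an early endosome Rab (limma adjusted p = 0.607), so neither passed the test.

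In control replicate 1 of the Ror2 P5 table, whose values on chromosomes 5 to 9 and X were not used, Rab28 on chromosome 5 still had 923 normalized counts, beside 944 and 878 in the other controls.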

How the results depend on the processing

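The count of Rab genes called changed from 0 to 1 in Vangl2 P2 with the replicate block (Rab20), to 4 by DESeq2 and, over the fits without one lung, to between 0 and 3 (3 without mutant replicate 3: Rab3c, Rab20 and Rab27a). In Vangl2 P5 it became 3 with the block, 3 by DESeq2 and 1 in the fit of all 12 lungs of that age (Rab27a), and in Ror2 P5 1 by DESeq2 without control replicate 1, a fit chosen after seeing the data. The median log2 fold change of members became 0.017, 0.031 and -0.008 in Vangl2 P2, Vangl2 P5 and Ror2 P2 with reads over library totals, 0.052 in Vangl2 P2 without a floor, 0.254 in Ror2 P5 with control replicate 1 as deposited, and in the fits without one lung between 0.048 and 0.111 in Vangl2 P2 and between -0.106 and 0.018 in Vangl2 P5. In the other 214 alternatives the count stayed at 0 or the median moved by less than the spread between replicates, though it changed sign in Ror2 P2 without mutant replicate 3 (-0.003) and in Ror2 P5 without mutant replicate 1 (-0.009). Of the alternatives for single named members, 1071 kept the direction and the side of the threshold, 14 kept the direction and came to pass it, and 35 changed direction. The causes were not tested.

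With the replicate block the Ror2 P2 and Ror2 P5 counts stayed at 0, as did those of the 4 differences between comparisons. Same-numbered lungs correlated at -0.00831, 0.0498 and 0.151 in Vangl2 P2, 0.00823, 0.306 and 0.179 in Ror2 P2 and 0.062, -0.0544 and -0.127 in Ror2 P5, so the numbers were not taken to pair lungs there.

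Members near 0 changed sign. With library totals Rab14 lay at -0.04 in Vangl2 P2, Rab38, Rab5a and Rab8a at 0.08, 0.05 and 0.04 in Vangl2 P5, and Rab11a at -0.03 in Ror2 P2. In Ror2 P5 Rab14 lay at -0.00 by TMM and -0.01 by edgeR and DESeq2, and control replicate 1 as deposited gave 3.28 for Rab43, 3.73 for Rab7 and 3.41 for Rab8a. Without one lung, values ran in Vangl2 P2 from -0.05 to 0.30 for Rab17, from -0.07 to 0.05 for Rab8a, in Vangl2 P5 from -0.18 to 0.15 for Rab11a, from -0.08 to 0.05 for Rab38, from -0.11 to 0.01 for Rab5a, from -0.58 to 0.34 for Rab7, from -0.16 to 0.09 for Rab8a, in Ror2 P2 from -0.03 to 0.06 for Rab11a, from -0.08 to 0.01 for Rab13, from -0.01 to 0.15 for Rab38, in Ror2 P5 from -0.01 to 0.03 for Rab14.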
